A study of Mus musculus with 8 samples.

Results

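The genes of branched-chain amino acid breakdown were examined in mouse hearts that lacked Lrpprc. The 10 genes, Bcat1, Bcat2, Bckdha, Bckdhb, Dbt, Bckdk, Ppm1k, Ivd, Acadsb and Hibadh, were chosen by name for their place in this pathway, and all 10 were found among the 50599 records of each library. RNA was isolated from the whole hearts of male C57BL/6N mice aged 12 weeks and sequenced as total RNA, with 1 animal in each library. The knockout group of 4 carried Lrpprc loxP/loxP with a Cre active in heart and skeletal muscle, and the group of 4 labelled wildtype carried Lrpprc loxP/loxP without Cre. Only cells in which Cre is active lose the gene, so the other cells of a knockout heart keep it. Total expected counts ranged from 35218541 to 47743376 per library, and mitochondrial rRNA took 44.0 to 46.9% of them in the wildtype and 65.6 to 67.8% in the knockout.

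Leucine, isoleucine and valine share the first steps of their breakdown. An aminotransferase takes off the amino group, in the cytosol by Bcat1 or in mitochondria by Bcat2, and the branched-chain keto acid dehydrogenase complex then commits the carbon skeleton to oxidation. The complex consists of the E1 subunits encoded by Bckdha and Bckdhb, the E2 core encoded by Dbt and the E3 subunit Dld, which it shares with other dehydrogenases. Bckdk, a kinase, phosphorylates E1 and switches the complex off, and Ppm1k, a mitochondrial phosphatase, removes the phosphate and switches it on. Beyond the complex the pathways part, with Ivd acting on the leucine product, Acadsb on the isoleucine product and Hibadh late in the valine branch. Heart muscle is among the tissues that oxidise branched-chain keto acids.

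Lrpprc was examined first as a check of the labels. Its normalised count, the count divided by a library size factor and corrected for transcript length, was 3424 to 3946 in the wildtype and 504.3 to 605.4 in the knockout libraries. The groups did not overlap, and the fitted log2 fold change came to -2.67 ± 0.1 (SE, DESeq2 adjusted p = 3.77e-153). Of 6 cardiomyocyte markers 5 were called lower in the knockout and Tnnt2 did not pass the test. Among all genes tested 15.5% were called lower and 18.2% higher, at a DESeq2 adjusted p under 0.05. The median log2 fold change of the 6 was -1.10. Their summed count was 900200 to 1006000 in the wildtype and 416500 to 543000 in the knockout. Myh6 held more of that sum than any other marker, at means of 553900 and 302600. Of 6 macrophage markers 5 were higher, with sums of 2307 to 2960 against 2674 to 6152. Of 6 fibroblast markers Col1a1 and Postn were higher, with sums of 10770 to 11340 against 13220 to 26710. Postn alone had means of 942.8 in the wildtype and 5970 in the knockout. The 6 endothelial markers had sums of 13960 to 15510 against 10050 to 17850. Of 5 atrial markers Nppa was higher and Myl7 and Sln lower, of 4 smooth muscle and pericyte markers Acta2 and Myh11 were lower, and the neutrophil markers S100a8 and S100a9 were higher. None of these markers was under 3 normalised counts in every library. In whole hearts fewer cells of a type and less RNA per cell cannot be told apart, and the part of these shifts in the results on the 10 genes was not tested.

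Of the 10 genes 1 rose and 7 fell in the knockout, at a DESeq2 adjusted p under 0.05. Bcat1 rose, while Bckdha, Bckdhb, Dbt, Ppm1k, Ivd, Acadsb and Hibadh fell, and Bcat2 and Bckdk did not pass the test. Among all 19959 genes tested 18.2% were called higher and 15.5% lower, and the median log2 fold change was 0.005 against -0.65 over the 10 genes. The same 1 and 7 genes had counts that did not overlap between the groups, where 16.7% of all genes tested lay wholly higher and 16.4% wholly lower in the knockout. Scaling to total counts put the median of genes with at least 10 normalised counts at -0.28, and then 9 of the 10 genes were called lower. Scaling to total counts without mitochondrial rRNA put that median at 0.44, and then 5 were called lower and 2 higher. The shares of all genes given above belong to the main fit, and shares under these scalings were not counted. With edgeR the calls of all 10 genes stayed on their side of the threshold and in their direction.

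**Figure D1:**
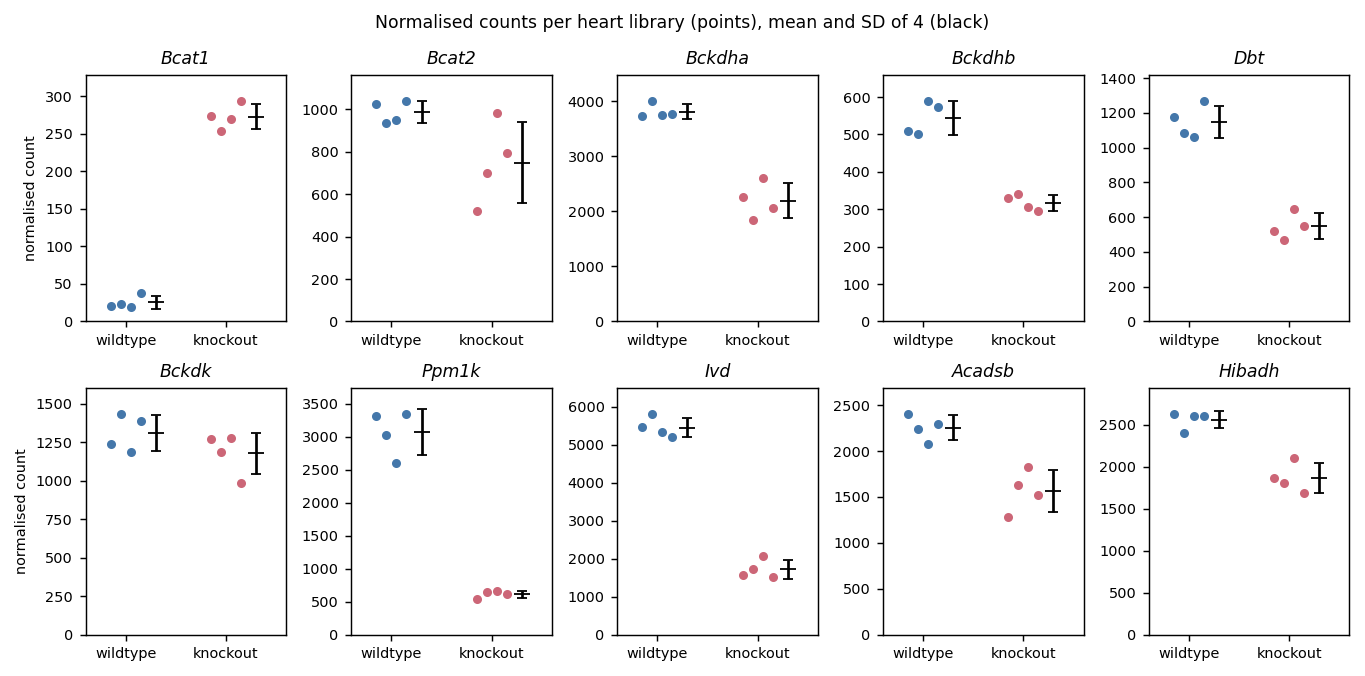
Normalised counts of the 10 genes, 1 point per heart library, with blue points for the wildtype and red points for the knockout and black bars for the mean and SD of 4 libraries. The knockout points of Bcat1 lie above all wildtype points, those of Bcat2 and Bckdk overlap with them, and those of the other 7 genes lie below.

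The aminotransferases were compared first. Bcat1 (ENSMUSG00000030268.17) lies on the minus strand of chromosome 6 from 144993835 to 145076184 (GRCm38). In order of replicates 1 to 4, its normalised count was 20.9, 22.9, 19.6 and 38.1 in wildtype hearts and 274.3, 253.4, 270.2 and 293.7 in knockout hearts, and values of other genes follow the same order. Each knockout library thus held more Bcat1 than any wildtype library, and the 4 knockout libraries lay close together. The mean went from 25.4 ± 8.62 to 272.9 ± 16.6 (SD, n = 4 each), which is 10.7-fold or 3.43 ± 0.22 on the log2 scale (SE, DESeq2 adjusted p = 3.65e-52). The wildtype values rested on 19 to 41 expected counts per library and the knockout values on 199 to 361, so the wildtype level was the less precise. Among 10441 genes that averaged 100 or more normalised counts, 0.421% rose further than Bcat1.

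RefSeq places starts of Bcat1 at more than 1 site, and the 250 bases before the upstream start and before an internal start are shown because Bcat1 was the only member that rose. They are written 5′ to 3′ on the minus strand of GRCm38.p6, and capitals mark each match to CCAAT or its reverse complement ATTGG.
Bcat1 upstream start, chr6:145076158-145076407: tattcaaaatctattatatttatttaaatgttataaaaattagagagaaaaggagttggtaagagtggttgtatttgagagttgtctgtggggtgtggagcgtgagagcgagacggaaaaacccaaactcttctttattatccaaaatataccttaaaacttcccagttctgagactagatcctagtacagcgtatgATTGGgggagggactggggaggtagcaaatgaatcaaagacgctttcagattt
Bcat1 internal start, chr6:145048813-145049062: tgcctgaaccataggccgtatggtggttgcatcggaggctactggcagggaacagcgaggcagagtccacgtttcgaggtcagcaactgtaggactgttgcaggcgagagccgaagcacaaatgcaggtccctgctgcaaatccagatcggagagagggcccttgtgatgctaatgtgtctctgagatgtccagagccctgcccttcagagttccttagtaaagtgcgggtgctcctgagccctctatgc
The upstream window holds 1 match, which begins 53 bases before the start, and the internal window holds 0. The GC content was 37.6% in the upstream and 56.4% in the internal window, beside a median of 52.4% over all promoters. Which of the starts the Bcat1 reads came from was not resolved in gene-level counts.

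Bcat2 (ENSMUSG00000030826.19, chromosome 7 from 45570153 to 45589711, plus strand) had normalised counts of 1023, 935, 947.4 and 1039 in the wildtype and 520.1, 698, 980.6 and 796 in the knockout. Knockout replicate 3 lay inside the wildtype range and the other three knockout libraries lay below it. The log2 fold change was -0.40 with a 95% interval of -0.75 to -0.05 before adjustment, and the gene did not pass the test (DESeq2 adjusted p = 0.0715; edgeR adjusted p = 0.0575). With knockout replicate 3 left out the fall was called, at -0.56 (DESeq2 adjusted p = 0.000473). With knockout replicate 1 left out it was smaller, at -0.26 (DESeq2 adjusted p = 0.15). The value also depended on the scaling, at -0.70 with total counts (DESeq2 adjusted p = 0.000347) and 0.02 with total counts without mitochondrial rRNA (DESeq2 adjusted p = 0.941), although relative to the median gene it stayed at -0.42 under each. Without the correction for length the fall was called, at -0.41 (DESeq2 adjusted p = 0.0445), which made 8 of the 10 genes lower.

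The balance of the aminotransferases was then taken within each library, where size factors cancel. Per kilobase of effective length, the Bcat1 to Bcat2 ratio was 0.0149, 0.0178, 0.0152 and 0.0263 in the wildtype and 0.37, 0.255, 0.194 and 0.259 in the knockout. All 4 knockout ratios lay above all 4 wildtype ratios. The difference was 3.86 on the log2 scale, or 14.5-fold, with p = 0.0286 in a two-sided exact permutation test over the 70 assignments of 8 libraries, which is the smallest p this design allows. Expressed as a share of the combined level, Bcat1 made up 1.76% ± 0.515 in wildtype and 21.0% ± 4.46 in knockout hearts (SD, n = 4 each). Bcat2 thus remained the more abundant aminotransferase transcript in every library.

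**Figure D2:**
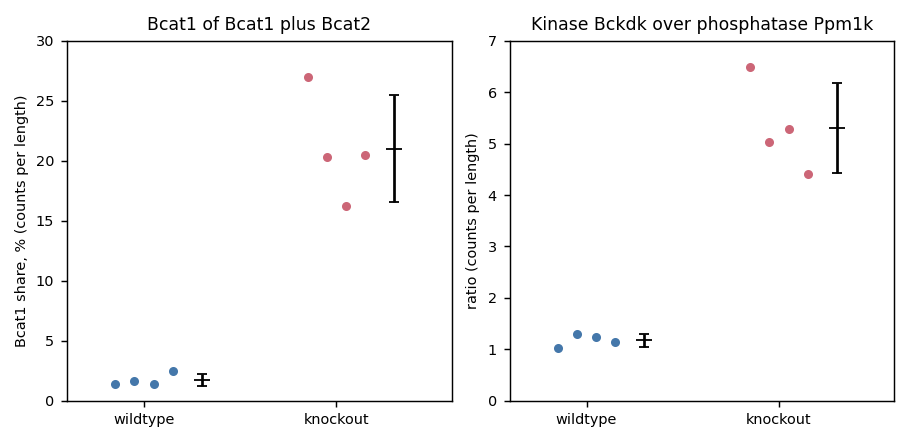
Balance of opposing or parallel enzymes per heart library, in counts per kilobase of effective length, with points for single libraries and black bars for the mean and SD of 4. Left, Bcat1 as a percentage of Bcat1 plus Bcat2, at 1.41 to 2.5% in the wildtype and 16.2 to 27.0% in the knockout. Right, the ratio of the kinase Bckdk to the phosphatase Ppm1k, at 1.02 to 1.29 in the wildtype and 4.41 to 6.48 in the knockout.

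Each of the 3 dedicated subunits of the dehydrogenase complex fell in the knockout. Bckdha, the E1 alpha subunit (ENSMUSG00000060376.7, chromosome 7 from 25629946 to 25658981, minus strand), had normalised counts of 3725, 4003, 3748 and 3767 in the wildtype and 2254, 1848, 2602 and 2060 in the knockout. Bckdhb, the E1 beta subunit (ENSMUSG00000032263.14, chromosome 9 from 83925145 to 84124240, plus strand), had 508.5, 501.4, 589.5 and 574.1 against 329.5, 339.7, 305.3 and 295.1. Neither pair of groups overlapped, and the log2 fold changes were close, at -0.80 ± 0.119 for Bckdha (SE, DESeq2 adjusted p = 3.09e-10) and -0.78 ± 0.116 for Bckdhb (SE, DESeq2 adjusted p = 4.17e-10). Dbt, the E2 core (ENSMUSG00000000340.10, chromosome 3 from 116513070 to 116549981, plus strand), had 1176, 1085, 1063 and 1268 in the wildtype and 520.4, 469.2, 647 and 548.2 in the knockout. This was a 2.10-fold fall without overlap, or -1.07 ± 0.128 on the log2 scale (SE, DESeq2 adjusted p = 1.43e-15). Dld, the E3 subunit that other complexes use as well, was at 4341 ± 284 and 4450 ± 623 (SD, n = 4 each) and did not pass the test (DESeq2 adjusted p = 0.856). Its call depended on the scaling, at -0.27 with total counts (DESeq2 adjusted p = 0.013) and 0.45 with total counts without mitochondrial rRNA (DESeq2 adjusted p = 7.98e-06). The falls of the dedicated subunits stayed called under each of these scalings but differed in size, with total counts without mitochondrial rRNA giving -0.38 for Bckdha, -0.35 for Bckdhb and -0.65 for Dbt.

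The proportions of the subunits were described per kilobase of effective length. The Bckdha to Bckdhb ratio was 4.95 ± 0.522 in wildtype and 4.87 ± 0.885 in knockout hearts (SD, n = 4 each), and its groups overlapped. The ratio of Dbt to Bckdhb was 0.987 ± 0.103 against 0.807 ± 0.15 (SD, n = 4 each), also with overlap. Bckdha relative to Dbt was 4.48 to 5.57 in the wildtype and 5.67 to 6.54 in the knockout, so here the groups lay apart. These subunit ratios were not tested.

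The kinase and the phosphatase act on the complex in opposite directions and were compared next. Bckdk (ENSMUSG00000030802.14, chromosome 7 from 127904082 to 127910221, plus strand) had normalised counts of 1235, 1431, 1183 and 1389 in the wildtype and 1269, 1185, 1274 and 988.2 in the knockout. The groups overlapped, and the log2 fold change of -0.15, with a 95% interval of -0.39 to 0.09, did not pass the test (DESeq2 adjusted p = 0.363). Its sign depended on the scaling, at -0.45 with total counts (DESeq2 adjusted p = 7.77e-05) and 0.27 with total counts without mitochondrial rRNA (DESeq2 adjusted p = 0.0337), and relative to the median gene it was -0.18 under each.

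Ppm1k (ENSMUSG00000037826.5, chromosome 6 from 57506502 to 57535468, minus strand) had normalised counts of 3316, 3026, 2607 and 3340 in the wildtype and 534.2, 642.7, 659.1 and 610.9 in the knockout. All 4 knockout libraries lay far below the lowest wildtype library. The mean went from 3072 ± 341 to 611.7 ± 55.4 (SD, n = 4 each), a 5.02-fold fall or -2.33 ± 0.121 on the log2 scale (SE, DESeq2 adjusted p = 3.41e-79). Among the same 10441 genes, 0.613% fell further. The 250 bases before its RefSeq start are shown as those of the member that fell most, on the minus strand of GRCm38.p6 with capitals as above.
Ppm1k, chr6:57535488-57535737: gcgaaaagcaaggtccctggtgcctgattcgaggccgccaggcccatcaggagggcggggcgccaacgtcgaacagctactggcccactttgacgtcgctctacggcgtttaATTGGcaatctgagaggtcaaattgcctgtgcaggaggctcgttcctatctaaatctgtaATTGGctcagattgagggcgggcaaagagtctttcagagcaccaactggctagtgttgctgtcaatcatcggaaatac
This window holds 2 matches to ATTGG, which begin 138 and 78 bases before the start, at a GC content of 54.4%.

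Set against each other within a library, Bckdk and Ppm1k were near parity in the wildtype, with ratios per kilobase of 1.02, 1.29, 1.24 and 1.14. In the knockout the ratios were 6.48, 5.04, 5.28 and 4.41, all above the wildtype. The difference was 2.17 on the log2 scale, or 4.5-fold, with p = 0.0286 in the two-sided exact permutation test, again the smallest p possible. Relative to the E2 core, Bckdk went from 1.81 ± 0.189 to 3.45 ± 0.556 and Ppm1k from 1.55 ± 0.0974 to 0.655 ± 0.0943 (SD, n = 4 each), and neither pair of groups overlapped.

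Of the 3 branch enzymes among the 10 genes, that of the leucine branch fell furthest. Ivd, isovaleryl-CoA dehydrogenase (ENSMUSG00000027332.11, chromosome 2 from 118861954 to 118882909, plus strand), had normalised counts of 5466, 5805, 5342 and 5208 in the wildtype and 1564, 1731, 2073 and 1514 in the knockout. Every knockout library lay far below the wildtype range. It fell 3.17-fold, or -1.67 ± 0.119 on the log2 scale (SE, DESeq2 adjusted p = 2.24e-42), and 1.51% of the 10441 genes fell further. The promoter of Ivd is shown for its repeated motif, on the plus strand of GRCm38.p6 with capitals as above.
Ivd, chr2:118861744-118861993: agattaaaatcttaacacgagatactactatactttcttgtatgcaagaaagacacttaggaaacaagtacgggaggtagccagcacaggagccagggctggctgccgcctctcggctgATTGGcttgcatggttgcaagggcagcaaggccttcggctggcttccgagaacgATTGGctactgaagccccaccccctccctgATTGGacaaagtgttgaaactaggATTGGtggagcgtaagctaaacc
It holds 4 matches to ATTGG, which begin 131, 77, 47 and 23 bases before the start, at a GC content of 51.2%.

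The mix of transcripts was described by length. The mean transcript length of Ivd, which RSEM weights by the estimated abundance of each transcript, was 2792, 2526, 2461 and 2729 bases in the wildtype and 2186, 2272, 2150 and 2121 bases in the knockout. The knockout libraries were all shorter, with a mean of 2182 ± 65.5 bases against 2627 ± 158 (SD, n = 4 each). Lengths that did not overlap between the groups were found for 1 of the 10 genes, a share near the 8.62% of 11192 genes with several transcripts. Leaving out knockout replicate 2 gave 3 of 10, where 12.3% of all such genes then did not overlap, and leaving out wildtype replicate 1 or knockout replicate 1 gave 2 of 10, beside 11.9 and 13.5% of all such genes. GENCODE M21 lists 8 Ivd transcripts, of which the single coding one has 3665 bases and the 7 non-coding ones have 266 to 1010. Without the correction for length the log2 fold change of Ivd was -1.95. The transcript estimates themselves were not tested.

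**Figure D3:**
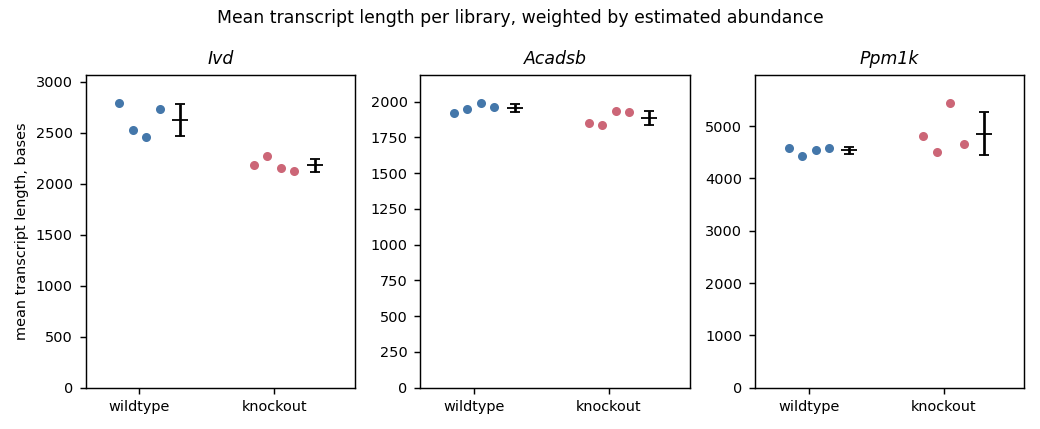
Mean transcript length in bases of Ivd, Acadsb and Ppm1k per heart library, weighted by estimated abundance, with points for single libraries and black bars for the mean and SD of 4. The Ivd values are 2461 to 2792 bases in the wildtype and 2121 to 2272 in the knockout, whereas the groups overlap for Acadsb and Ppm1k.

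Acadsb, the short/branched-chain acyl-CoA dehydrogenase of the isoleucine branch (ENSMUSG00000030861.15, chromosome 7 from 131410601 to 131448944, plus strand), had normalised counts of 2400, 2244, 2076 and 2296 in the wildtype and 1279, 1629, 1822 and 1525 in the knockout. Hibadh, the 3-hydroxyisobutyrate dehydrogenase of the valine branch (ENSMUSG00000029776.11, chromosome 6 from 52546228 to 52640389, minus strand), had 2622, 2403, 2600 and 2596 against 1860, 1806, 2101 and 1691. These were the smallest falls among the called members, and the groups still lay apart. On the log2 scale Acadsb was at -0.53 ± 0.124 (SE, DESeq2 adjusted p = 0.000158) and Hibadh at -0.46 ± 0.096 (SE, DESeq2 adjusted p = 1.74e-05). With total counts without mitochondrial rRNA neither passed, at -0.11 for Acadsb (DESeq2 adjusted p = 0.485) and -0.04 for Hibadh (DESeq2 adjusted p = 0.742), or -0.55 and -0.48 relative to the median gene.

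The order of the 10 transcripts by level was compared on the scale of normalised counts per kilobase of effective length. In the wildtype Ivd was highest at 2451 ± 115, followed by Bckdha at 2198 ± 74.6, Hibadh at 1519 ± 60.7 and Acadsb at 1285 ± 77.1 (SD, n = 4 each), and the ranges of these neighbours lay apart. Bckdk at 791.3, Ppm1k at 679.7 and Bcat2 at 638.9 came next with ranges that overlapped from one to the next, then Bckdhb at 446.8 and Dbt at 439, which overlapped as well. Bcat1 was lowest at 11.5 ± 3.91. In the knockout Bckdha led at 1264 ± 185, followed by Hibadh at 1108, Acadsb at 891.3, Ivd at 773 ± 114 and Bckdk at 712.7, and Ppm1k at 135.3 ± 12.3 overlapped with Bcat1 at 123.8 ± 7.51 at the bottom of the order. Only the steps from Bcat2 at 485.1 to Bckdhb at 261 and from Dbt at 208.9 to Ppm1k lay apart in the knockout.

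**Figure D4:**
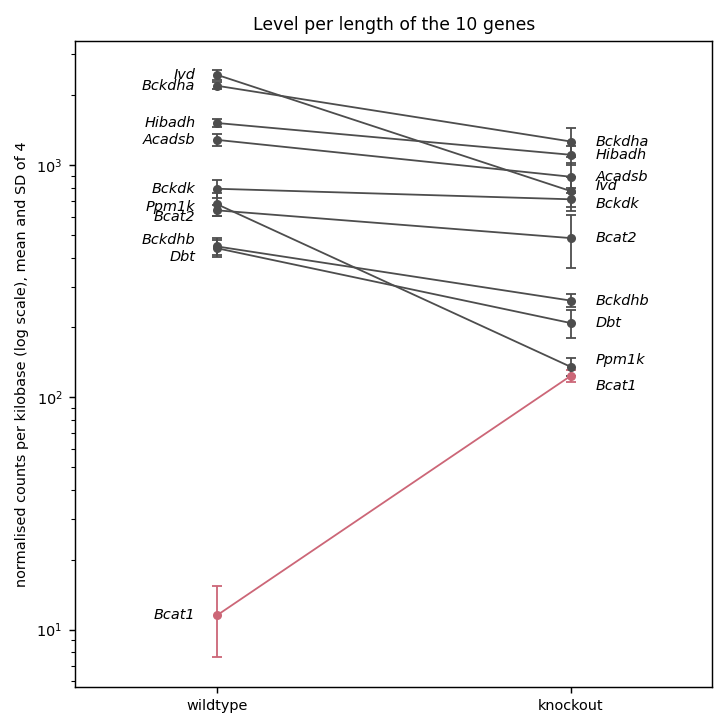
Mean level of the 10 genes in wildtype and knockout hearts, in normalised counts per kilobase of effective length on a log scale, with error bars for the SD of 4 libraries. Ivd goes from 2451 to 773 and Ppm1k from 679.7 to 135.3, while Bcat1, drawn in red, goes from 11.5 to 123.8.

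The knockout libraries differed among themselves in the 9 genes other than Bcat1. The mean log2 change of these 9 against the wildtype mean was -1.02, -0.95, -0.72 and -0.98 in knockout replicates 1 to 4. Knockout replicate 3 had the highest count of the 4 knockout libraries in 8 of the 9 genes, the exception being Bckdhb. Bcat1 was at 3.44, 3.32, 3.41 and 3.53 in the same libraries and showed no such step. The summed count of the 6 cardiomyocyte markers was 539100, 529800, 543000 and 416500 in knockout replicates 1 to 4. Replicate 3 was highest of the 4 for Tnnt2, Pln and Ryr2, below replicate 1 for Tnni3 and below replicates 1 and 2 for Myh6. For Actc1 it was at 48260, close to 48280 in replicate 4 and below 66710 in replicate 2 and 76630 in replicate 1. Knockout replicate 3 had the lowest summed count of the fibroblast markers at 13220 against 15330 to 26710 in the other knockout libraries, of the macrophage markers at 2674 against 3202 to 6152, of the endothelial markers at 10050 against 12040 to 17850 and of the atrial markers at 35600 against 45490 to 54640. Nppa made up most of that atrial sum, at 34330 in knockout replicate 3. The atrial marker Myl4 was at 463.3 there and between 2084 and 3415 in knockout replicates 1, 2 and 4, and Myl7 at 70.1 and between 319.4 and 639.1. Sln was lowest there too, at 46.1, whereas Bmp10 at 688.3 lay above knockout replicates 1 and 4. The erythroid markers summed to 53860 in knockout replicate 3, the highest of the 4 knockout libraries, whose other sums were between 15230 and 45830. Its smooth muscle and pericyte sum of 12080 lay above 11720 in knockout replicate 2. Its lymphocyte and neutrophil sum of 83.2 lay above 61.6 in knockout replicate 1. The adipose sum was lowest there, at 5.32 against 26.2 to 138. The part of these markers in the step was not tested. With knockout replicate 3 left out, 1 of the 10 genes was called higher and 8 lower, Bcat2 having joined the others.

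Further genes of the same breakdown routes were counted next. Of 11 that complete the complex and the 3 branches, 7 fell, 1 rose and 3 did not pass the test, with a median log2 fold change of -0.47. Of all genes tested 15.5% were called lower and 18.2% higher. In the leucine branch Mccc1 and Mccc2, the subunits of methylcrotonyl-CoA carboxylase, fell by 0.93 and 1.17 on the log2 scale, the latter from 973.9 ± 41.8 to 432.9 ± 26 normalised counts (SD, n = 4; DESeq2 adjusted p = 3.94e-32). Auh, the hydratase after them, fell by 0.81. With total counts without mitochondrial rRNA 5 of the 11 genes were called lower and 4 higher, Dld, Hibch and Hsd17b10 among the latter, while Acad8 at 0.04 and Echs1 at -0.05 lost their calls.

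In the valine branch Acad8 fell by 0.38, a call lost without wildtype replicate 3 or knockout replicate 2 (DESeq2 adjusted p = 0.0579 and 0.053), and Aldh6a1, the last dehydrogenase, by 0.81, and with Hibadh 3 of 4 genes fell. Hibch, the hydrolase before Hibadh, was the exception, rising from 1047 ± 44.8 to 1255 ± 116 normalised counts (SD, n = 4 each), or by 0.26 on the log2 scale (DESeq2 adjusted p = 0.0316). That call was lost with total-count scaling, at -0.04, with a replicate block and when any of 6 libraries was left out, namely wildtype replicate 1, 2 or 4 or knockout replicate 1, 2 or 3. In the isoleucine branch Acat1, the thiolase, fell by 0.74 and Hsd17b10 was at -0.09 (DESeq2 adjusted p = 0.67), so that with Acadsb 2 of 3 genes fell. Hsd17b10 was called lower without knockout replicate 3, at -0.22, and with total counts, at -0.39, and called higher with total counts without mitochondrial rRNA, at 0.33 (DESeq2 adjusted p = 0.0474, 0.00256 and 0.00828). Echs1, a hydratase used in more than 1 branch, fell by 0.47.

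Valine and isoleucine also yield propionyl-CoA, which is carboxylated and isomerised to succinyl-CoA with the help of a cobalamin cofactor. Of 8 genes of this route 7 fell and 1 did not pass the test, beside 15.5% of all genes tested called lower. Their median log2 fold change was -0.66. Mut, the methylmalonyl-CoA mutase, had the most certain fall, from 2011 ± 65 to 878.5 ± 52.2 normalised counts (SD, n = 4 each), which is 2.29-fold (DESeq2 adjusted p = 4.07e-44). The carboxylase subunits Pcca and Pccb fell by 0.49 and 0.38, Pcca losing its call without wildtype replicate 1 (DESeq2 adjusted p = 0.0597), the epimerase Mcee by 0.86, and Mmaa, Mmab and Mmachc, which handle the cofactor, by 1.06, 0.67 and 0.66. Mmadhc, which also handles the cofactor, was at 0.21 (DESeq2 adjusted p = 0.303). With total counts without mitochondrial rRNA 3 of these 8 genes were called lower and Mmadhc alone higher, at 0.62, while Pcca at -0.05, Pccb at 0.04, Mmab at -0.24 and Mmachc at -0.23 lost their calls. Over the 29 genes of breakdown, the 10 included, 21 fell, 2 rose and 6 did not pass. The shares of all genes tested were 15.5% lower and 18.2% higher.

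The carriers of branched-chain amino acids gave a different count, with 4 of 6 higher, beside 18.2% of all genes tested. The other 2 did not pass the test, and the median log2 fold change was 0.64. Slc7a5, the large neutral amino acid transporter of the plasma membrane, had 38.9, 50.5, 44.4 and 78 normalised counts in the wildtype and 960.6, 596.6, 970 and 904.3 in the knockout. The groups lay far apart, at 4.02 ± 0.236 on the log2 scale (SE, DESeq2 adjusted p = 1.87e-62). Slc3a2, the heavy chain with which Slc7a5 pairs, rose from 479.2 ± 42.6 to 1959 ± 149 (SD, n = 4), or by 2.03 on the log2 scale. Slc43a2 rose by 0.71, and Slc25a44, the carrier that brings branched-chain amino acids into mitochondria, by 0.58. Slc7a8 and Slc43a1 were low, at 44.4 and 33.2 normalised counts in the wildtype, and had log2 fold changes of 0.46 and -0.33 (DESeq2 adjusted p = 0.385 and 0.581).

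**Figure D5:**
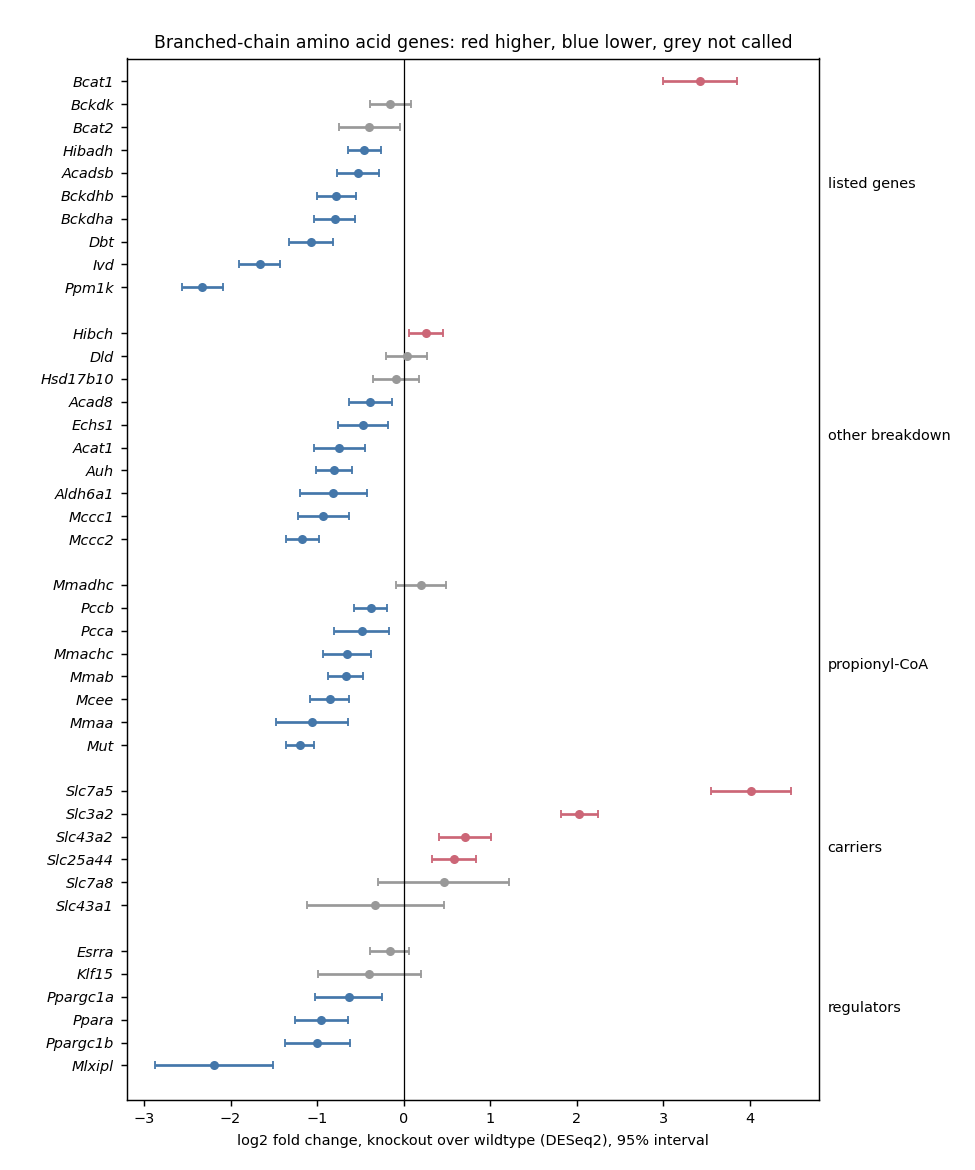
Log2 fold changes of knockout over wildtype with 95% intervals (DESeq2, 4 libraries per group) for the 10 genes and for 4 lists of related genes, 1 of which is drawn without 1 gene, in red where called higher, blue where called lower and grey where not called at an adjusted p of 0.05. Of the 10 genes 7 are blue and Bcat1 is red, and 4 of 6 carriers are red. With total counts without mitochondrial rRNA, where the median gene lies at 0.44, Bcat2 and Bckdk turn to values above 0.

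Regulators known to act on oxidative or amino acid genes were given as a list of 6. Of these 4 fell, beside 15.5% of all genes tested, and 2 did not pass the test, with a median log2 fold change of -0.79. Klf15, a factor known to raise branched-chain amino acid breakdown in muscle, had 493.6, 594.8, 773.6 and 712.1 normalised counts in the wildtype and 208.6, 565.9, 715.8 and 467.9 in the knockout. Its groups overlapped and it did not pass the test (DESeq2 adjusted p = 0.334). The coactivator Ppargc1a fell by 0.63 on the log2 scale and the nuclear receptor Ppara by 0.95, and the coactivator Ppargc1b fell from 679.3 ± 121 to 340.3 ± 69.9 normalised counts (SD, n = 4 each). Mlxipl, a glucose-responsive factor, fell from 342.4 ± 24.5 to 75.5 ± 46.1 (SD, n = 4), or by 2.19, while Esrra was at -0.16 (DESeq2 adjusted p = 0.291). Esrra was called lower without knockout replicate 3, at -0.25, and with total counts, at -0.47, and called higher with total counts without mitochondrial rRNA, at 0.26 (DESeq2 adjusted p = 0.0112, 9.98e-06 and 0.0103). In the last of these 3 of the 6 regulators were called lower and Ppargc1a lost its call, at -0.22.

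For 9 of the 10 genes the gene with the most similar profile was sought among 10437 others that averaged 100 or more normalised counts, by the root-mean-square difference of log2 counts, less the wildtype mean, over the 8 libraries. Slc7a11, the light chain of the cystine transporter, was nearest to Bcat1 at a difference of 0.169, at 69.2 ± 16.5 normalised counts in wildtype and 710.1 ± 129 in knockout hearts (SD, n = 4 each). Nearest to Ppm1k was Adra1a, an adrenergic receptor, at 0.124, nearest to Ivd was Cmya5, a muscle structural protein, at 0.051, and nearest to Dbt was Pink1, a mitochondrial kinase, at 0.1. Other pairs were Bcat2 with Tatdn3, Bckdha with Tmem201, Bckdhb with Gpc1, Bckdk with Zfp637 and Acadsb with Mtus2, at 0.083, 0.048, 0.075, 0.076 and 0.037. The measure takes in the difference between the 2 groups as well as the spread within them, and genes with a like fold change score as near.

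Promoter motifs were counted on both strands in the 250 bases before each RefSeq start, for 12 promoters of 9 of the 10 genes and for 32851 promoters in all. TGATGNAA, the C/EBP-ATF response element, occurred in 3.45% of all promoters, CACGTG, the E-box, in 6.02%, and TNAAGGTCA, the estrogen-related receptor element, in 1.14%. Each of the 3 had 0 matches among the member promoters, which says only that these letters are not in these windows. CCAAT, which was added after the sequences had been seen, occurred in 33.8% of all promoters and in 6 of the 12 member promoters, 1 each of Bcat1, Bckdhb, Bckdk, Hibadh, Ivd and Ppm1k. These 6 include the gene that rose, genes that fell and Bckdk, which did not pass the test.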

How the data were processed

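RNA from whole mouse hearts was sequenced in 8 libraries, grouped by their labels as 4 wildtype and 4 Lrpprc knockout. Per the methods of the study, cytoplasmic rRNA was depleted and the authors estimated the deposited expected counts from stranded read pairs with RSEM 1.2.31, aligning with bowtie2 to GENCODE M13 plus mitochondrial sequences of their own. Reads matching more than 1 gene are split, and 7 of the 10 genes had fractional counts in at least 1 library. RSEM's deposited gene length and effective length, in bases, were used as an offset and for levels per kilobase. The authors' own comparison, which holds log2 fold changes and p-values, was not used, nor were 8 columns of normalised counts whose names match no label.

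Expected counts were rounded and fitted with DESeq2 1.42.0 in R 4.3.3 on genotype alone over the 8 libraries, using median-of-ratios size factors with effective lengths as an offset. The study names tximport and DESeq2 for its own fit, and whether it used such an offset is not given in the sources used here. P values were adjusted by Benjamini-Hochberg over all genes, with a threshold of 0.05. Ratios within a library used a pseudocount of 1 on the counts. GENCODE M21 gave the symbols, which matched 50339 of 50563 Ensembl identifiers, and the GRCm38 coordinates. Promoters came from RefSeq (GRCm38.p6). As alternatives, edgeR 4.0.16 with TMM was run, and DESeq2 without length offset, with a minimum of 10 counts in 4 libraries, with other scalings, with a replicate block and without each library, and ratios were taken with a pseudocount of 0.5 and without division by length. The fits were tested on simulated data with the same length for every gene and library, so the length offset was not exercised. No libraries of a group agreed within sampling noise, with a chi-square per degree of freedom of 4.62 to 51.14. The 10 genes and all lists were chosen with earlier results of these data known. All 10 genes are named, with the gene nearest to 9 of them, the members of each list and Lrpprc, except that 1 list member and 1 nearest gene are not reported here.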

Additional observations from a re-analysis of the deposited data

Results flagged for a closer look

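In 44 groups of 4 values examined, 3 had a library far from the other three by Dixon's criterion, where chance gives about 1 in 20, or 2.2. Lrpprc in knockout replicate 2 was at 504.3 normalised counts, below 597.4 to 605.4 in the other knockout libraries. Bckdha in wildtype replicate 2 was at 4003, above 3725 to 3767 in the other wildtype libraries. Hibadh in wildtype replicate 2 was at 2403, below 2596 to 2622 in the other wildtype libraries.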

How the results depend on the processing

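Bcat1, Bckdha, Bckdhb, Dbt, Ppm1k, Ivd and Lrpprc kept their direction and their call in all 15 alternatives, with log2 fold changes of 3.14 to 3.85 for Bcat1, -2.62 to -1.91 for Ppm1k, -1.97 to -1.25 for Ivd, -1.10 to -0.38 for Bckdha, -1.07 to -0.35 for Bckdhb and -1.37 to -0.65 for Dbt. With total counts without mitochondrial rRNA, Bcat2 turned to 0.02 and Bckdk to 0.27, the genes called higher were 2 of the 10, 4 of the other breakdown genes, 1 of the propionyl-CoA genes and 1 of the regulators, and 3 propionyl-CoA genes were called lower. Without the length offset Bcat2 was called lower, at -0.41. With total-count scaling 0 other breakdown genes were called higher by DESeq2, as Hibch was lost. Leaving out 1 library gave 0 to 1 other breakdown genes called higher, 6 to 8 called lower, 6 to 7 propionyl-CoA genes and 4 to 5 regulators called lower, and 1 to 3 of the 10 genes with lengths that do not overlap. The cause of these changes was not tested beyond the shift of the median gene given for each scaling. The 4 carrier genes called higher stayed 4 under each of the 3 other scalings.

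Replicate numbers were shared between the groups but nothing in the labels ties them to a litter or day. The correlation of same-numbered libraries was -0.1 to 0.106, and 1 of 4 wildtype libraries correlated best with its own number, so the libraries were not treated as pairs. With a replicate block the ratios differed by the same 3.86 for Bcat1 to Bcat2 and 2.17 for Bckdk to Ppm1k, with p = 0.125 in an exact sign-flip permutation of 4 pairs, which is the smallest p that test allows, and 0 other breakdown genes were called higher. The block changed no call of the 10 genes.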
